A study of Homo sapiens with 12 samples.

Results

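The 9 genes described here encode the enzymes that make prostaglandin E2, the enzyme that breaks it down and a pair of its receptors. They were chosen by name out of 19973 genes listed, with FPKM (fragments counted per length of gene and per depth of library) of all 4 groups of libraries already known: PLA2G4A, PTGS1, PTGS2, PTGES, PTGES2, PTGES3, HPGD, PTGER2 and PTGER4. Because the measured levels took part in that choice, the levels of these 9 genes and their differences are given as a description, without a test. RNA was sequenced from H460, a human large cell lung carcinoma line, and A549, a human lung adenocarcinoma line, both WT by label. The study nevertheless describes both lines as homozygous for inactivating mutations of KEAP1. Each line was either left non-treated (control) or given 10 µM ISP-I for 48 h, with 3 libraries in each group and 12 in all. ISP-I is isovalerylspiramycin I, a component of the macrolide antibiotic carrimycin; the study dissolved it in DMSO, and its RNA-seq controls were labelled non-treated. Nothing in the labels says whether the 3 libraries of a group came from separate cultures, so p values below measure the spread between these libraries, which may be technical.

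Prostaglandin E2 is a lipid signal made from arachidonic acid, a fatty acid held in membrane phospholipids. A phospholipase A2 frees the acid, a cyclooxygenase turns it into the unstable intermediate prostaglandin H2, and a terminal synthase converts that to prostaglandin E2. The product leaves the cell and acts on nearby cells through G protein-coupled receptors, and its breakdown starts with oxidation by HPGD. In many epithelial cancers, lung cancer among them, the inducible cyclooxygenase PTGS2 is known for high levels and HPGD for loss.

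Reads on genes numbered 14225849 to 17874422 per library. A549 control library 3 differed from the other A549 controls by 28 and 32.5 times the variance of read sampling (chi-square per degree of freedom), against 3.38 between those 2. H460 ISP-I libraries 2 and 3 differed by 98.7 times, the widest pair within a group. The median log2 difference of all genes tested between ISP-I and control was -0.15 in H460 and 0.02 in A549, and scaling by median of ratios moved the H460 median to 0.01. The same scaling moved the H460 differences of the better expressed genes described here further up, that of PTGS2 from 2.17 to 2.43, that of PTGES from -2.0 to -1.71 and that of PLA2G4A from 0.00 to 0.28. The keratins KRT8, KRT18 and KRT19 exceeded 40 FPKM in all 12 libraries, whereas the epithelial markers EPCAM and CDH1 stayed at or below 0.148 FPKM in H460. In A549, CDH1 stood at 4.75 to 5.18 FPKM in controls and 0.605 to 0.911 FPKM with ISP-I, and the summed FPKM of the 5 epithelial markers at 924 to 1252 and 628 to 659. None of the 10 leukocyte, endothelial and platelet markers reached 1 FPKM in any library. The summed FPKM of 4 fibroblast markers, mostly COL3A1, was 9.20 to 10.4 in H460 controls and 2.69 to 3.27 in H460 with ISP-I, and the part of these marker shifts in the results was not tested.

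The stretches upstream of 3 of the genes are shown first, because promoter elements are how the inducible pair PTGS2 and PTGES has classically been studied, and because PTGER4 is the receptor that differed in opposite directions in the lines. The sequences are the 250 bases before the annotated start in RefSeq (GRCh38.p14), where all 9 genes had an entry, written 5′ to 3′ on the gene's strand with motif matches in capitals. Motifs were searched on both strands of each window: the cyclic AMP response element half-site CGTCA, the AP-1 site TGANTCA, the C/EBP site TTNCGCAA, the EGR1 site GCGTGGGCG, the GC box GGGCGG bound by SP1, and TATAAA. The PTGS2 stretch lies at chr1:186680424-186680673 on the minus strand, the PTGES stretch at chr9:129753043-129753292 on the minus strand and the PTGER4 stretch at chr5:40679665-40679914 on the plus strand.
PTGS2: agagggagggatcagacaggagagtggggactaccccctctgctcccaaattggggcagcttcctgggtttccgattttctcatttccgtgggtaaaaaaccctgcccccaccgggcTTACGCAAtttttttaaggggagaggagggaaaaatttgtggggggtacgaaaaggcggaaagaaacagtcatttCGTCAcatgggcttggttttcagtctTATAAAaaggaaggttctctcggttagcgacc
PTGES: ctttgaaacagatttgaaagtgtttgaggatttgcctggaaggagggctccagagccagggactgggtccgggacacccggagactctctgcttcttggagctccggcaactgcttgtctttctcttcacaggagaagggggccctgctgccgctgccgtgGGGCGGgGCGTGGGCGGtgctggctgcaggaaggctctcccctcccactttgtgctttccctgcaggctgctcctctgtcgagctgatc
PTGER4: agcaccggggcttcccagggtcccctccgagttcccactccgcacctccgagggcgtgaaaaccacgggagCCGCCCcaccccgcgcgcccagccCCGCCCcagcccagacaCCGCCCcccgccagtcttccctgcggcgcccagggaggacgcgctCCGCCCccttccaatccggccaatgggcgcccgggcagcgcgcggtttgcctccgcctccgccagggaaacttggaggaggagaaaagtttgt

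In the PTGS2 window the capitals mark, from left to right, a C/EBP match at 133 to 126 bases before the start, a cyclic AMP half-site at 58 to 54 bases and a TATAAA at 32 to 27 bases. Of 35116 windows in the RefSeq table, 0.752% held the C/EBP letters, 21.2% the half-site and 10.7% TATAAA. The PTGES window had no TATAAA on either strand. It held a GC box at 89 to 84 bases before the start, an EGR1 match at 82 to 74 bases and a second GC box at 78 to 73 bases that overlaps the EGR1 match. The EGR1 letters occurred in 0.72% of all windows and the GC box in 42.6%. PTGER4 held 4 GC boxes and none of the other motifs. The AP-1 letters, found in 6.57% of all windows, were in no window of the 9 genes. The PLA2G4A window held none of the 6 motifs, that of HPGD 1 GC box, and those of PTGES2 and PTGES3 4 GC boxes each. PTGES3 and PTGER2 each held 1 cyclic AMP half-site, PTGER2 beside 2 GC boxes, and PTGS1 held 1 GC box and 1 TATAAA on the opposite strand. For PTGS1, PTGES2 and HPGD, which have several listed starts, the window of the first was read. GC content was 38.8% in the PLA2G4A window, 50.4% in that of PTGS2, 61.2% in that of PTGES and 74.0% in that of PTGER2, against a median of 58.0% over all windows. The motifs were chosen after the windows had been seen, so the rates over all windows cannot show that a match is unusual. A match describes the letters only, and binding was not measured.

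**Figure D1:**
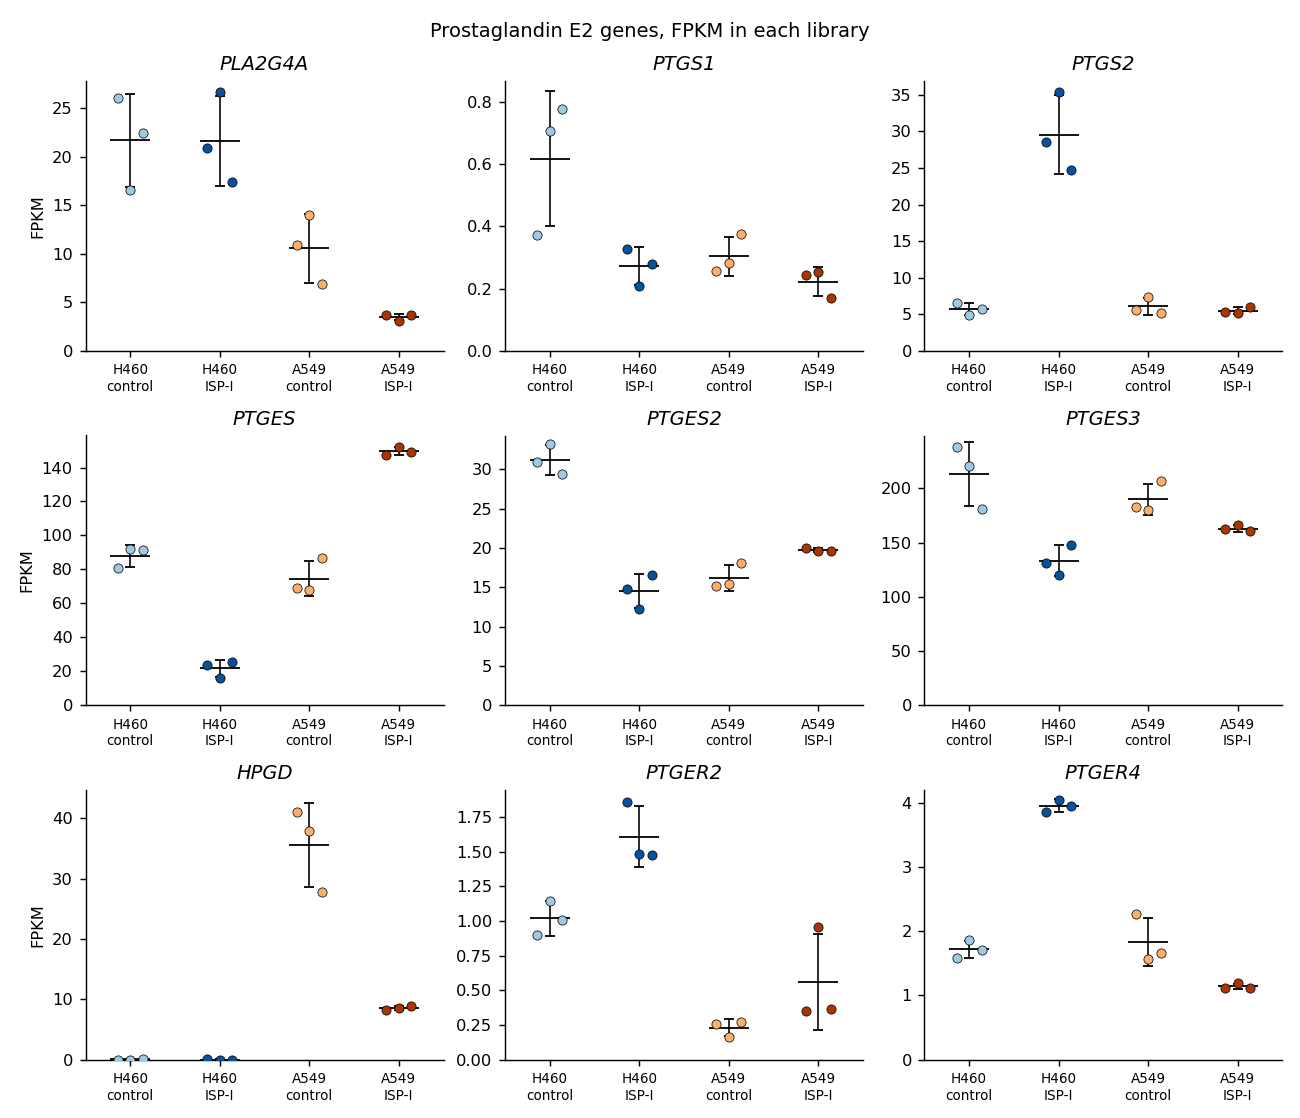
FPKM of the 9 genes in each of the 12 libraries (points), with the group mean and SD (horizontal mark and bars, n = 3), on a linear axis that starts at 0 and differs between panels. PTGS2 stands at 24.7 to 35.4 FPKM in H460 with ISP-I and at most 7.39 elsewhere, PTGES is low in H460 with ISP-I and high in A549 with ISP-I, and HPGD is near 0 in all H460 libraries.

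The route begins with PLA2G4A, the cytosolic phospholipase A2 that prefers arachidonate-bearing phospholipids (chromosome 1, 186828949 to 186988981, plus strand). In H460 it stood at 26.1, 16.6 and 22.4 FPKM in the controls and at 20.9, 26.6 and 17.4 FPKM with ISP-I. The groups overlapped, and the difference of means on the log2(FPKM + 1) scale was 0.00 ± 0.25 (SE, n = 3 per group). In A549 the controls held 10.9, 14 and 6.89 FPKM and the treated libraries 3.70, 3.10 and 3.68 FPKM. All 3 treated libraries were below the lowest control, at 0.330 times the control mean, a difference of -1.32 ± 0.28 on the log2 scale. Control library 3 was the lowest of the A549 controls, and without it the difference was -1.57. In bulk RNA, fewer expressing cells and less RNA per cell cannot be told apart. H460 already held more than A549 without treatment, 2.05 times by the means, and with ISP-I 6.20 times.

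PTGS1 and PTGS2 are the constitutive and the inducible cyclooxygenase. PTGS1 (chromosome 9, 122370530 to 122395703, plus strand) was below 1 FPKM in every library. It was read 20 to 67 times per library in H460 and 14 to 32 times in A549. H460 controls had 0.373, 0.706 and 0.777 FPKM and the ISP-I libraries 0.329, 0.208 and 0.280 FPKM. A549 controls had 0.255, 0.282 and 0.375 FPKM and the ISP-I libraries 0.243, 0.253 and 0.169 FPKM. Treated libraries lay under the controls in both lines, but by small margins at this depth (0.253 against 0.255 FPKM in A549). By the means, treated libraries held 0.440 times the control level in H460 and 0.729 times in A549. The log2 differences, made smaller by the pseudocount of 1 at such levels, were -0.34 ± 0.12 in H460 and -0.09 ± 0.05 in A549.

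PTGS2 (chromosome 1, 186671791 to 186680423, minus strand), whose promoter letters are shown above, was nearly level between the lines before treatment. H460 controls held 6.56, 4.90 and 5.76 FPKM and A549 controls 5.63, 7.39 and 5.17 FPKM. With ISP-I, H460 held 28.6, 35.4 and 24.7 FPKM, 5.14 times the control mean and a log2 difference of 2.17 ± 0.18. A549 with ISP-I held 5.27, 5.18 and 6.01 FPKM, within the range of its own controls, with a log2 difference of -0.11 ± 0.15. The 3 treated H460 libraries stood apart from all 9 others, and leaving out any 1 library kept the H460 difference between 2.04 and 2.29. PTGS2 made up 87.4% to 94.6% of the summed FPKM of the 2 cyclooxygenases in H460 controls and 98.9% to 99.4% with ISP-I. In A549 that share was 93.2% to 96.3% in controls and 95.3% to 97.3% with ISP-I. PTGS2 shares 219 exonic bases with PACERR, a long non-coding RNA on the opposite strand, and the strand setting of the counting is not stated, so reads of this pair of genes cannot be told apart there. PLA2G4A lies 148.53 kb from PTGS2 on chromosome 1, and the pair did not share a pattern over the groups: PLA2G4A overlapped between control and ISP-I in H460, where PTGS2 did not.

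Terminal synthesis is shared by PTGES, the inducible membrane-bound synthase, PTGES2, a second membrane-associated synthase, and PTGES3, the cytosolic synthase better known as the Hsp90 co-chaperone p23. PTGES (chromosome 9, 129738331 to 129753042, minus strand) was at like levels in both lines without treatment and moved apart with it. Controls held 80.6, 92.2 and 91.5 FPKM in H460 and 69.0, 68.0 and 86.5 FPKM in A549. With ISP-I, H460 held 23.5, 15.9 and 25.7 FPKM, 0.246 times the control mean, and A549 held 147, 152 and 149 FPKM, 2.01 times the control mean. The log2 differences were -2.0 ± 0.21 in H460 and 1.0 ± 0.11 in A549, so that treated A549 held 6.89 times the PTGES level of treated H460. Neither line had overlap between its treated and control libraries. H460 ISP-I library 2 was the lowest in PTGES and the highest in PTGS2, and without it the PTGES difference in H460 was -1.8. Without A549 control library 3 the A549 difference was 1.11.

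PTGES2 (chromosome 9, 128120693 to 128128462, minus strand), 1609.9 kb from PTGES, had the same directions as PTGES with smaller sizes. H460 controls held 31.0, 33.3 and 29.4 FPKM and treated libraries 14.8, 12.3 and 16.5 FPKM, a log2 difference of -1.06 ± 0.13. In A549 the controls held 15.1, 15.5 and 18.1 FPKM and the treated libraries 20, 19.6 and 19.6 FPKM, a difference of 0.27 ± 0.08. Every treated H460 library was below its controls and every treated A549 library above its own. PTGES3 (chromosome 12, 56663341 to 56688408, minus strand) was the most abundant of the 9 genes by FPKM in all 4 groups. It held 238, 220.3 and 181 FPKM in H460 controls, 132, 120.4 and 148 FPKM in H460 with ISP-I, 182, 180.4 and 207 FPKM in A549 controls and 162, 166 and 160.3 FPKM in A549 with ISP-I. Treated libraries were below the controls without overlap in both lines, by -0.67 ± 0.15 in H460 and -0.22 ± 0.06 in A549 on the log2 scale. After median-of-ratios scaling the H460 difference was -0.38. GENCODE lists 5 PTGES3 pseudogenes, and how reads that match several copies were counted is not given in the sources used here, so its level is uncertain to that extent.

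The share of PTGES among the 3 terminal synthases does not depend on the scaling of a library. It does lean on PTGES3, the most abundant of them, whose level is uncertain. In FPKM, PTGES was 23.0% to 30.3% of the sum in H460 controls and 25.8% to 27.8% in A549 controls, ranges that overlap. With ISP-I it was 10.7% to 13.8% in H460 and 44.7% to 45.4% in A549. Of PTGES plus PTGES2 alone, PTGES was 72.2% to 75.7% in H460 controls and 81.5% to 82.7% in A549 controls, without overlap. With ISP-I that share was 56.4% to 61.3% in H460 and 88.0% to 88.6% in A549. Set against PTGS2, the step before it, PTGES had 12.3 to 18.8 times the FPKM in H460 controls and 0.450 to 1.04 times with ISP-I. In A549 the ratio was 9.20 to 16.7 in controls and 24.8 to 29.3 with ISP-I. PTGES thus exceeded PTGS2 several-fold in every library except those of treated H460.

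**Figure D2:**
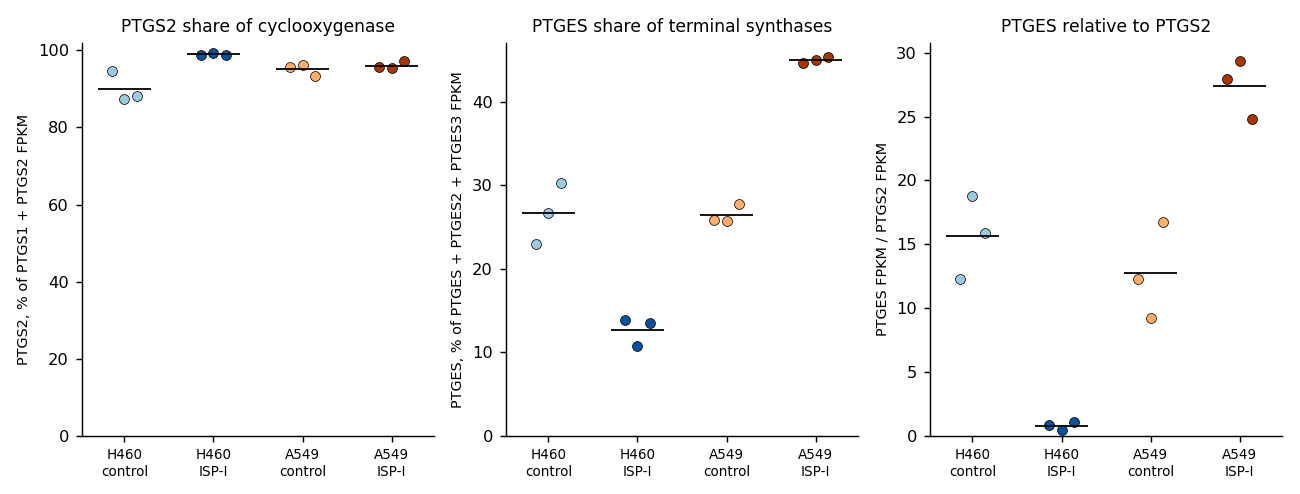
Ratios within each library (points) and group means (lines, n = 3): PTGS2 as a percentage of the summed FPKM of PTGS1 and PTGS2, PTGES as a percentage of the 3 terminal synthases, and PTGES FPKM divided by PTGS2 FPKM, all axes from 0. The PTGES share of the 3 synthases overlaps between the controls of the lines. It is at 10.7% to 13.8% in H460 with ISP-I and at 44.7% to 45.4% in A549 with ISP-I.

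HPGD, the NAD-dependent hydroxyprostaglandin dehydrogenase that inactivates prostaglandin E2 (chromosome 4, 174490175 to 174523154, minus strand), was the gene that separated the lines most. A549 controls held 41.1, 37.9 and 27.7 FPKM and treated A549 8.17, 8.56 and 8.89 FPKM. All treated libraries were below all controls, at 0.240 times the control mean, a log2 difference of -1.92 ± 0.17. Control library 3 was again the lowest of its group, and without it the difference was -2.08. H460 held 0.0126, 0.0238 and 0.0849 FPKM in controls and 0.0506, 0 and 0.0122 FPKM with ISP-I. These H460 values rest on 10 reads in the 3 controls together (95% exact Poisson interval 4.8 to 18.4) and on 6 reads in the treated libraries (2.20 to 13.1), intervals that cover counting error only. A change in H460 was not detectable at this depth. A549 controls had 8577 HPGD reads and treated A549 2123. The gene shares 314 exonic bases with a long non-coding RNA on the opposite strand. PTGES and HPGD, the last step of synthesis and the first of breakdown, stood at 1.68 to 3.12 FPKM of PTGES per FPKM of HPGD in A549 controls and at 16.8 to 18.0 with ISP-I.

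The receptors PTGER2 and PTGER4, which both signal through the stimulatory G protein and raise cyclic AMP, were the lowly expressed end of the set together with PTGS1. PTGER4 (chromosome 5, 40679915 to 40693735, plus strand) held 1.59, 1.86 and 1.70 FPKM in H460 controls and 3.85, 4.05 and 3.96 FPKM with ISP-I, 2.30 times as much by the means. In A549 it held 2.26, 1.57 and 1.66 FPKM in controls and 1.11, 1.19 and 1.12 FPKM with ISP-I, 0.623 times as much. The controls of the lines overlapped, and the treated libraries lay above the controls in H460 and below them in A549, with log2 differences of 0.87 ± 0.04 and -0.40 ± 0.11. PTGER2 (chromosome 14, 52314305 to 52328598, plus strand) held 0.902, 1.15 and 1.01 FPKM in H460 controls and 1.86, 1.49 and 1.48 FPKM with ISP-I. A549 controls held 0.257, 0.166 and 0.275 FPKM and treated A549 0.353, 0.957 and 0.368 FPKM, from 6 to 10 reads per control library and 13 to 37 per treated one. Treated libraries were above controls in both lines, with log2 differences of 0.37 ± 0.09 in H460 and 0.32 ± 0.18 in A549, where ISP-I library 2 decides the size: without it the difference was 0.14. By the means, library 2 included, treated PTGER2 was 1.58 times control in H460 and 2.41 times in A549. Together the 2 receptors summed to 2.49 to 3.01 FPKM in H460 controls and 5.43 to 5.71 with ISP-I, and to 1.74 to 2.52 and 1.47 to 2.14 in A549, where the groups overlapped.

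**Figure D3:**
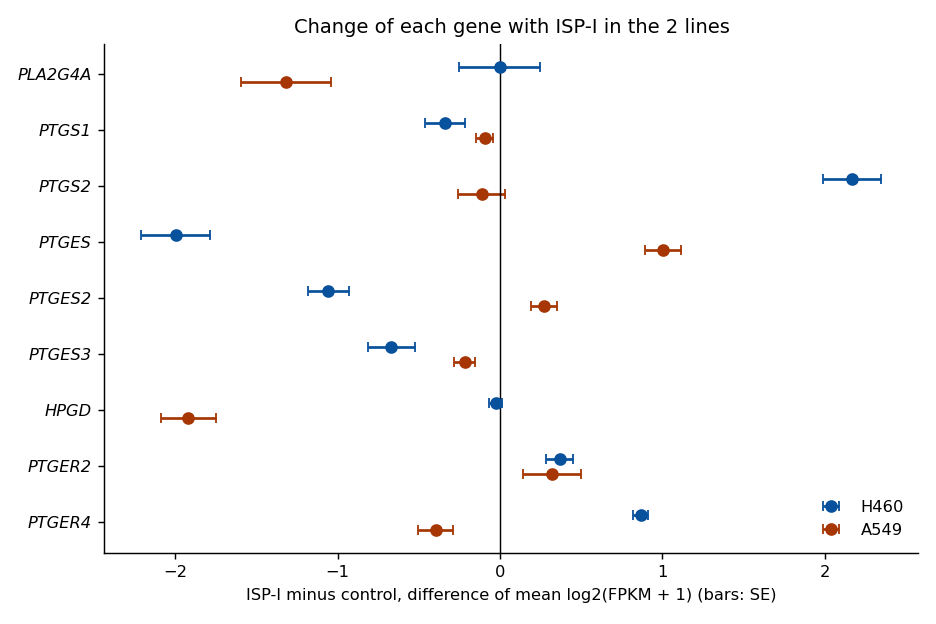
Difference between ISP-I and control libraries in the mean of log2(FPKM + 1) for each gene (points; bars are SE, 3 against 3 libraries), H460 in blue and A549 in orange. PTGES, PTGES2 and PTGER4 lie on opposite sides of 0 in the 2 lines, PTGS2 is far from 0 in H460 only, and PLA2G4A and HPGD are far from 0 in A549 only.

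Counted over the set, 3 of the 9 genes were higher with ISP-I without overlap in H460 (PTGS2, PTGER2, PTGER4), where 29.6% of all genes tested were, and 4 were lower (PTGS1, PTGES, PTGES2, PTGES3), where 43.1% were. PLA2G4A and HPGD overlapped in H460, and HPGD was under the minimum mean of 0.1 FPKM used for the background there. In A549, 3 of the 9 were higher (PTGES, PTGES2, PTGER2), against 34.8% of all genes, and 5 were lower (PLA2G4A, PTGS1, PTGES3, HPGD, PTGER4), against 30.7%, while PTGS2 overlapped. PTGES, PTGES2 and PTGER4 differed from control without overlap in opposite directions in the lines, 3 of 9 genes beside 7.38% of the genes tested in both lines. H460 minus A549, these 3 changes differed by -3.00, -1.33 and 1.26 on the log2 scale. Between the controls, 3 genes were higher in H460 (PLA2G4A, PTGES2, PTGER2; background 31.4%) and HPGD was lower (33.4%). Between the treated groups, 4 were higher in H460 (PLA2G4A, PTGS2, PTGER2, PTGER4; 26.5%) and 4 lower (PTGES, PTGES2, PTGES3, HPGD; 47.3%). Since the genes were picked with these values known, nothing is read from these counts.

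The order of the 9 levels, per length in FPKM, changed with treatment in both lines. It rests on the deposited gene lengths, such as 1891 bases for PTGES and 6084 for PTGES2. By reads, H460 controls together held 7419 on PTGES and 8453 on PTGES2. In FPKM, both controls had PTGES3 first and PTGES second without overlap. In H460 with ISP-I, PTGS2 took second place at a mean of 29.5 FPKM, and PTGES and PLA2G4A followed at 21.7 and 21.6. The ranges of PTGS2, PLA2G4A and PTGES overlapped (24.7 to 35.4, 17.4 to 26.6 and 15.9 to 25.7 FPKM). PTGES2, at 12.3 to 16.5 FPKM, overlapped with PTGES alone, so PTGS2 and PLA2G4A stood clear of it. In A549 with ISP-I, PTGES stood just under PTGES3 (147 to 152 and 160.3 to 166 FPKM), and HPGD, above PTGES2 in the controls, was below it. PTGER4, PTGER2 and PTGS1 filled the lowest places in every group apart from HPGD in H460, and in A549 controls the ranges of PTGS1 and PTGER2 overlapped.

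The genes whose log2(FPKM + 1) followed HPGD most closely over the 12 libraries, out of 10592 named genes averaging 1 FPKM or more, were CAT (Pearson r = 0.998), DNM1, B4GALT4, THBS1 and IGFBP1. CAT, the catalase gene, had group means of 22.6 FPKM in A549 controls, 6.45 in treated A549 and 0.0127 and 0.0536 in H460. Closest to PTGES were PAQR7 (r = 0.987), SPHK2, VIPAS39, FPGS and FAM136A. FAM136A had group means of 38.8 and 15.0 FPKM in H460 and 36.3 and 50.4 FPKM in A549, control before ISP-I. Closest to PLA2G4A were YWHAE (r = 0.980), ABCG2, MTPN, SLC7A11 and FAM98A, and SLC7A11, the cystine transporter subunit, had means of 35.4 and 27.5 FPKM in H460 and 21.5 and 9.17 FPKM in A549. These correlations are descriptions over 12 libraries that fall into 4 groups and share the scaling by library total.

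The wider pathway was read from 148 further genes in 9 lists written from general knowledge, all found in the table. The lists were chosen with earlier results of these data known. Their shares beside those of all genes are therefore a description, and no excess is read from them. In each line, limma compared log2(FPKM + 1) over all genes whose mean was 0.1 FPKM or more. A call needed both a fold change over 2 on that scale and an adjusted p (Benjamini-Hochberg) under 0.05. In H460, 119 of the 148 could be tested, and 25 rose and 23 fell. That compares with 10.5% of all genes that rose and 15.2% that fell. With median-of-ratios scaling, 29 rose and 16 fell, while over all genes 1409 higher and 2047 lower calls became 1924 and 1435. In A549, 15 of 123 rose and 4 fell, against 4.2% and 3.51% of all genes. The change differed between the lines by over 1 on the log2 scale for 33 of 125 genes, against 16% of all genes. The median log2 difference over the lists was -0.32 in H460 and -0.06 in A549, beside -0.15 and 0.02 over all genes.

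**Figure D4:**
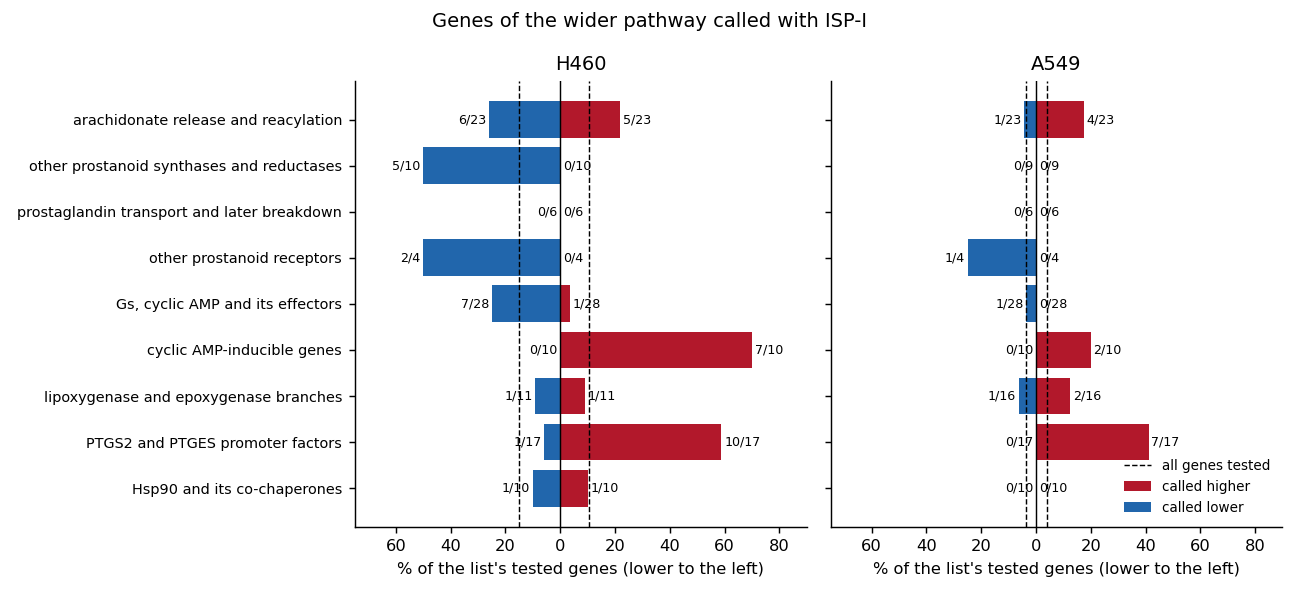
For each of 9 gene lists, the percentage of tested genes called higher (red, to the right) or lower (blue, to the left) with ISP-I in H460 and A549, with the counts printed at the bars. Dashed lines mark the percentage of all genes tested. Promoter factors have 10 of 17 genes higher in H460 and 7 of 17 in A549, and cyclic AMP-inducible genes 7 of 10 and 2 of 10.

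Among genes that release arachidonate or put it back into phospholipids, 5 of 23 rose and 6 fell in H460, and 4 rose and 1 fell in A549. PLA2G4C, a calcium-independent relative of PLA2G4A, rose in both lines. H460 had 0.111 ± 0.048 FPKM without and 13 ± 1.3 FPKM with ISP-I (mean ± SD, n = 3, and limma with Benjamini-Hochberg, adjusted p = 1.7e-07). The A549 means were 0.399 ± 0.11 and 13.2 ± 0.32 FPKM (limma adjusted p = 1.6e-07). The treated means of PLA2G4C and PLA2G4A were 13.2 and 3.49 FPKM in A549 and 13 and 21.6 FPKM in H460, so that the order of the 2 phospholipases differed between the treated lines. PLA2G10, a secreted phospholipase A2, rose in H460 from 0.179 to 3.70 FPKM and stood at 1.07 and 0.921 FPKM in A549. DAGLB, a diacylglycerol lipase, rose in both lines, H460 going from 6.92 to 27.3 FPKM and A549 from 9.01 to 19.4 FPKM, where the call was lost without control library 2 (log2 difference 0.98). MBOAT7, which returns arachidonate to phosphatidylinositol, fell in both, H460 going from 24.8 to 4.89 FPKM and A549 from 40 to 18.8 FPKM, and without A549 control library 3 the A549 difference was -0.97, short of the fold threshold. LPCAT4, another lysophospholipid acyltransferase, fell in H460 from 6.31 to 0.443 FPKM, and in A549 it went from 13.8 to 7.51 FPKM, short of the fold threshold.

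The other prostanoid synthases and reductases compete with the PTGES enzymes for prostaglandin H2 or act on its products. In H460, 0 of 10 rose and 5 fell, and with median-of-ratios scaling 2 fell. Of 9 tested in A549, 0 passed both thresholds by limma. At an unadjusted p under 0.05, 0 were higher and 9 lower in H460, and 1 was higher and 5 were lower in A549. At an adjusted p under 0.05 without the fold threshold, 0 were higher and 8 lower in H460. In A549 the numbers were again 1 and 5. Limma voom on the recovered reads called 0 higher and 7 of 9 lower in H460, and 0 of 8 in A549. Over all genes, limma voom called 2302 of 12758 higher and 3608 lower in H460. For A549 it called 1335 of 12993 higher and 1184 lower. No share of all genes was computed at an unadjusted p under 0.05, or at an adjusted one without the fold threshold. Nothing is therefore read from those counts, here or below. PRXL2B, a prostamide and prostaglandin F synthase, fell in H460 from 10.3 ± 0.72 to 1.44 ± 0.31 FPKM. In A549 it went from 11.6 ± 0.85 to 7.29 ± 0.49 FPKM, short of the fold threshold. AKR1C2, of the aldo-keto reductase family, fell from 88.9 ± 2.3 to 29 ± 3.7 FPKM in H460 and had 203 ± 9.5 and 226 ± 7.0 FPKM in A549. Its close relatives AKR1C1 and AKR1C3 can share reads with it. They were called lower in H460 as well, near the fold threshold (log2 differences -1.01 and -1.02). The 2 lower calls left there with median-of-ratios scaling were PRXL2B and AKR1C2. CBR1, a carbonyl reductase that acts on prostaglandin E2, fell in H460 from 14.2 to 5.45 FPKM, a call lost with median-of-ratios scaling (log2 difference -0.98). PTGDS, a prostaglandin D synthase, was listed at 0 in all libraries. Of 6 genes of prostaglandin transport and later breakdown, 0 passed both thresholds by limma in either line. At an unadjusted p under 0.05, 3 were lower in H460, and 1 was higher and 2 were lower in A549, while limma voom called 0 in either line. Those genes also had an adjusted p under 0.05 by limma and missed the fold threshold. The exporter ABCC4 stood at 4.78 and 3.81 FPKM in H460 and at 17.3 and 9.75 FPKM in A549.

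Among the other prostanoid receptors, 4 of 8 could be tested, and TBXA2R and PTGFRN fell in H460. None rose by limma in either line, with 1 higher in H460 and 0 in A549 at an unadjusted p under 0.05 and 1 in H460 by limma voom. The gene higher in H460 by limma also had an adjusted p under 0.05 and missed the fold threshold. TBXA2R, the thromboxane receptor, went from 2.71 ± 0.16 to 0.382 ± 0.083 FPKM in H460. In A549 it went from 0.242 to 0.102 FPKM, short of the fold threshold. PTGFRN, a regulator of the prostaglandin F receptor, fell in both lines, with H460 means of 12.4 and 1.13 FPKM and A549 means of 9.78 and 3.65 FPKM, control before ISP-I. PTGER1 and PTGER3, the receptors of prostaglandin E2 outside the set, had group means of at most 0.507 and 0.118 FPKM. By mean FPKM, PTGER4 and PTGER2 were thus the prostaglandin E2 receptors with the highest levels in H460 and with ISP-I in A549. In H460 controls the highest PTGER1 library (0.9025 FPKM) reached the lowest PTGER2 library (0.9023 FPKM). In A549 controls the mean of PTGER2 (0.232) was below that of PTGER1 (0.291).

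Downstream of the receptors, the list of the stimulatory G protein, adenylyl cyclases, phosphodiesterases and protein kinase A had 1 of 28 genes higher and 7 lower in H460, while A549 had 0 higher and 1 lower. At an unadjusted p under 0.05, limma had 4 higher and 20 lower in H460, while A549 had 5 higher and 14 lower. At an adjusted p under 0.05 without the fold threshold, it had 4 higher and 20 lower in H460. The A549 numbers were then 4 and 14. Limma voom called 1 higher and 13 lower in H460, while for A549 it called 1 higher and 4 lower. ADCY6, an adenylyl cyclase, fell in both lines, H460 going from 2.44 to 0.518 FPKM and A549 from 6.16 to 2.52 FPKM. On the log2(FPKM + 1) scale both calls were near the fold threshold. They were lost with quantile normalization in H460 (-0.99) and without ISP-I library 2 in A549 (-1.0). With a pseudocount of 0.1 the ADCY6 differences were -2.04 in H460 and -1.26 in A549. GRK2, a kinase that desensitizes receptors, fell in H460 from 15.6 to 5.27 FPKM, and ATF1, a cyclic AMP-responsive factor, rose there from 13.5 to 58.5 FPKM. In A549, GRK2 went from 13.2 to 9.06 FPKM and ATF1 from 11.1 to 21.9 FPKM, both short of the fold threshold. CREB1 stood at 3.74 ± 0.56 and 7.45 ± 1.7 FPKM in H460, short of the fold threshold on the log2(FPKM + 1) scale, and at 3.93 and 3.41 FPKM in A549. Genes known to be induced by cyclic AMP rose in 7 of 10 cases in H460 and 2 of 10 in A549. Calls in the other direction numbered 0 by limma, where 1 was lower in H460 and 3 in A549 at an unadjusted p under 0.05, and limma voom called 1 lower in A549. At an adjusted p under 0.05 without the fold threshold, 0 were lower in H460 and 3 in A549 by limma. FOSB rose in both lines, H460 going from 0.307 to 32.2 FPKM and A549 from 0.201 to 3.70 FPKM. So did the phosphatase gene DUSP1, with means of 15.2 and 62.5 FPKM in H460 and 79.1 and 216 FPKM in A549. PER1, a clock gene, rose in H460 from 4.0 to 42.8 FPKM and stood at 2.15 and 2.14 FPKM in A549. AREG, which encodes the EGFR ligand amphiregulin, rose in H460 from 0.805 ± 0.16 to 40 ± 7.4 FPKM and went from 53.3 ± 0.78 to 30 ± 2.0 FPKM in A549. Its change differed between the lines by 5.31 on the log2 scale (interaction in limma over 12 libraries, adjusted p = 1.4e-09). These genes answer to many other signals besides cyclic AMP, which was not measured.

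Transcription factors studied at the PTGS2 and PTGES promoters were called higher in 10 of 17 cases and lower in 1 in H460. In A549, limma called 7 higher and 0 lower, with 3 lower at an unadjusted p under 0.05 and 0 called lower by limma voom. Those 3 also had an adjusted p under 0.05 by limma and missed the fold threshold. With median-of-ratios scaling, 12 were higher and 0 lower in H460. EGR1, whose site occurs in the PTGES window above, went from 2.24 ± 0.25 to 761 ± 87 FPKM in H460, and A549 had 0.530 ± 0.21 and 42.1 ± 3.0 FPKM (limma adjusted p = 3.5e-08 and 1.1e-07). It rose in both lines, while PTGES was lower with ISP-I in H460 and higher in A549. JUN and FOS, the partners of AP-1, rose in both lines. JUN had means of 11.3 and 387 FPKM in H460 and 36.6 and 108 FPKM in A549, and FOS 1.46 and 96.9 FPKM and 1.27 and 5.78 FPKM, control before ISP-I. CEBPB, a factor of the C/EBP family whose letters occur in the PTGS2 window, rose as well. It had 60 ± 6.8 and 206 ± 76 FPKM in H460 and 27.9 ± 2.5 and 133 ± 1.4 FPKM in A549, where PTGS2 overlapped between the groups. RELA, a subunit of NF-kB, stood at 19.4 and 36.1 FPKM in H460 and at 20.5 and 33.8 FPKM in A549, short of the fold threshold in both. Whether any of these factors acted on PTGS2 or PTGES was not tested.

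**Figure D5:**
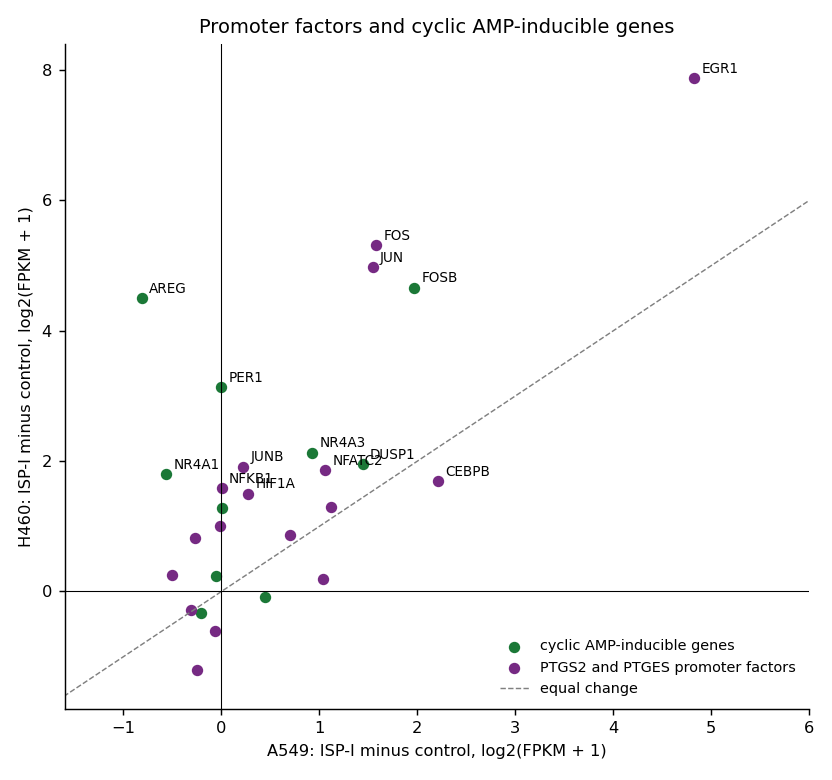
Difference between ISP-I and control in mean log2(FPKM + 1) in A549 (horizontal) and H460 (vertical) for 10 cyclic AMP-inducible genes (green) and 17 factors studied at the PTGS2 and PTGES promoters (purple). EGR1, JUN, FOS and FOSB lie above the dashed line of equal change, CEBPB lies below it, and AREG is above 0 in H460 and below 0 in A549.

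In the other branches of arachidonate metabolism, the lipoxygenases and epoxygenases, limma called 1 of 11 genes in each direction in H460 and, of 16 in A549, 2 higher and 1 lower. Limma voom called 2 of 9 higher and 4 lower in H460, and 5 of 15 higher and 2 lower in A549. ALOXE3, an epidermal lipoxygenase, rose in both lines. Its means were 0.179 ± 0.030 and 45.1 ± 2.2 FPKM in H460 and 1.59 ± 0.061 and 22.7 ± 0.97 FPKM in A549. EPHX1, the microsomal epoxide hydrolase, fell in H460 from 194 to 57.2 FPKM. In A549 it went from 77.4 to 51.3 FPKM, short of the fold threshold. In A549 the cytochrome P450 gene CYP4F2 rose from 0.0146 to 2.35 FPKM and CYP4F11 fell from 3.64 to 1.06 FPKM. H460 had CYP4F11 means of 36.3 and 18.8 FPKM, control before ISP-I, short of the fold threshold. Hsp90 and its co-chaperones, the partners of PTGES3, had 1 of 10 genes called in each direction in H460 and 0 of 10 in A549 by limma, where 2 were higher and 5 lower at an unadjusted p under 0.05 and limma voom called 0. Those 2 and 5 also had an adjusted p under 0.05 by limma and missed the fold threshold. AHSA1, which stimulates the ATPase of Hsp90, fell in H460 from 110.3 to 49.9 FPKM, a call lost with median-of-ratios scaling (log2 difference -0.86). In A549 it went from 81.4 to 50.0 FPKM, short of the fold threshold (-0.69). HSP90B1, the Hsp90 of the endoplasmic reticulum, rose in H460 from 61.4 ± 9.6 to 172 ± 65 FPKM and stood at 91.3 ± 22 and 74.9 ± 6.6 FPKM in A549.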

How the data were processed

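The values are FPKM for 19973 genes in 12 libraries, deposited by the authors. Per the labels and the methods, paired reads from TruSeq libraries were checked with FastQC, aligned to hg38 with HISAT2 and counted with HTSeq 0.9.1; the strand setting and annotation release are not given in the sources used here. A deposited column of gene length, in bases, is another kind of value. FPKM times length gave whole reads (tolerance 0.002) for 100% of values. Another 4 broken lines of the table were left out, and 1924 genes had no reads.

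The table's columns name the line, the treatment and a running number of 1 to 6 within each line, which no source ties to the labelled replicates. Line and treatment set the groups, and column order the library numbers. The 9 genes and the 9 lists were chosen with earlier results of these data known. For the 9 genes, FPKM, means, SD and differences of log2(FPKM + 1) with SE are given without a test. For the 148 list genes, limma 3.58.1 (R 4.3.3), with its trend option, was fitted to all genes with a mean of 0.1 FPKM or above, within each line and, for the interaction, over 12 libraries. P values were adjusted by Benjamini-Hochberg over all genes tested. The pseudocount of 1 understates changes of genes near or under 1 FPKM. Genes named are, per list and line, up to 3 called with the smallest p, up to 5 with the smallest interaction p, and, for the 3 members with the widest range, the 5 genes most alike. EGR1, FOS, AREG, CREB1 and RELA could be named regardless of a call. ABCC4, AKR1C1, AKR1C3, PTGDS, PTGER1 and PTGER3 were added after their values were seen. Promoter letters and motifs come from RefSeq (GRCh38.p14), and the motifs were chosen after the windows had been seen. Gene positions are those deposited with the values, and overlaps and pseudogenes are from GENCODE 44. Alternatives were a pseudocount of 0.1, a minimum mean of 1 FPKM, no filter, median-of-ratios scaling (factors of 1.09 to 1.12 for H460 controls, 0.899 to 0.920 for treated H460, 0.976 to 1.02 for A549), quantile normalization, voom on recovered reads, a shared fit of both lines, and the omission of single libraries.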

Additional observations from a re-analysis of the deposited data

Results flagged for a closer look

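The differences between the lines in 3 genes concern the prostaglandin E2 genes themselves, where all treated libraries lay above the controls in 1 line and below them in the other. H460 minus A549, the change with ISP-I differed by -3.00 on the log2 scale for PTGES, -1.33 for PTGES2 and 1.26 for PTGER4. These differences were not tested, because the genes were chosen with their values known.

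Among the named genes of the wider pathway, the interaction of line and treatment passed a difference of over 1 and an adjusted p under 0.05 (limma, Benjamini-Hochberg) for the following, all as H460 minus A549 on the log2 scale. Of genes for arachidonate release and reacylation, PLA2G10 differed by 2.10, LPCAT4 by -1.54 and MBOAT7 by -1.09. Of synthases and reductases, AKR1C2 differed by -1.74, PRXL2B by -1.62 and AKR1C1, which can share reads with AKR1C2, by -1.6. PTGFRN differed by -1.43 and TBXA2R by -1.25. Of cyclic AMP factors and inducible genes, AREG differed by 5.31, PER1 by 3.13, FOSB by 2.70 and ATF1 by 1.11. Of the factors studied at the PTGS2 and PTGES promoters, FOS differed by 3.73, JUN by 3.43 and EGR1 by 3.05, a larger rise in H460 in each case. In the lipoxygenase and epoxygenase branches ALOXE3 differed by 2.09, CYP4F2 by -1.69 and EPHX1 by -1.17. HSP90B1 differed by 1.66.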

How the results depend on the processing

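Counts of genes called lower in the pathway lists moved most with a pseudocount of 0.1 and with voom on recovered reads. A minimum mean of 1 FPKM or no filter left them at 23 in H460 and 4 in A549. With a pseudocount of 0.1, 35 genes in place of 23 were called lower in H460, 10 in place of 4 in A549, and 50 in place of 33 differed between the lines. With voom on recovered reads, 37 were called lower in H460 and 11 in A549. The other 65 counts stayed within 1.5 times the main count. Over all genes, the lower calls in H460 went from 2047 to 3464 with a pseudocount of 0.1 and to 3608 with voom, and the higher calls from 1409 to 2322 and 2302. In A549 the higher calls went from 575 to 1336 and 1335, and the lower calls from 481 to 1062 and 1184. For the interaction, 827 higher and 1407 lower became 1451 and 2788 with a pseudocount of 0.1 and 1378 and 2895 with voom, and 1298 and 825 with median-of-ratios scaling. For the named list genes, 526 values under an alternative kept their direction and side of the threshold and 6 kept their direction only. The cause was not tested. For the prostaglandin E2 genes 157 values moved by less than the spread between libraries. The 22 others kept their direction: with median-of-ratios scaling the H460 differences were 2.43 for PTGS2, -1.71 for PTGES, -0.78 for PTGES2 and 1.07 for PTGER4. The low genes grew with voom, PTGS1 to -1.13 in H460 and PTGER2 to 1.11 in A549. Without control library 2 of A549, the small PTGS2 difference there was 0.02. No paired analysis was possible because the columns are numbered 1 to 6 within a line, so that control and ISP-I libraries share no number, and no source ties these to the labelled replicates. Depth limits PTGS1, PTGER2 in A549 and HPGD in H460, which rest on under 70 reads per library.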
